A study of Oryctolagus cuniculus with 6 samples.

Results

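Annexins are proteins that bind acidic phospholipids of cell membranes when calcium rises, and S100A10 is a small protein of the S100 family that forms a complex with annexin A2. The RNA levels of 8 annexins (ANXA1, ANXA2, ANXA3, ANXA4, ANXA5, ANXA6, ANXA7 and ANXA11) and of S100A10 were compared between normal rabbit retina and retina with proliferative vitreoretinopathy (PVR). The genes were chosen by name, and all 9 were found among the 28788 genes of the files. Of these, 8 were matched by symbol. ANXA7 was matched by gene identifier, since its row carries the identifier that RefSeq pairs with this symbol in a rabbit assembly other than that of the files.

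Annexins gather at sites where calcium enters a torn plasma membrane and help to close the wound. The complex of annexin A2 and S100A10 also sits on the outer cell surface, where it binds plasminogen and its tissue activator. Annexin A1 dampens inflammation, in part through the formyl peptide receptors FPR1 and FPR2 on white blood cells. In the retina, annexins are made by glia, vessel cells, neurons and immune cells.

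RNA from 3 normal and 3 PVR retina samples of adult rabbits was sequenced. PVR was induced by puncture of the sclera, removal of some vitreous and injection of platelet-rich plasma into the vitreous cavity. Strain, sex, time of collection and treatment of the normal eyes were not given in the sources used here, and the labels do not say whether each sample is a separate animal, so p-values measure the spread between these samples, which may be technical.

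Between 31904593 and 43035080 reads were counted per sample. The summed FPKM (reads scaled to gene length and to the total counted in the sample) of 8 markers of Müller glia, the radial glia of the retina, was between 689 and 799.5 in normal and between 512 and 582 in PVR retina, with 4 of the 8 fold changes above 0, 2 markers (RLBP1 and GLUL) lower and a median log2 fold change of 0.03. Normal replicate 2 stood apart in lens genes. The summed FPKM of 7 lens markers was 28841 in that sample, 14.8 and 11.3 in normal replicates 1 and 3, and between 259 and 299 in PVR retina. Values that rest on normal replicate 2 are therefore given with and without it.

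None of the 9 genes passed the test between PVR and normal (adjusted p under 0.05 with edgeR's quasi-likelihood test), where 1.7% of the 18697 genes tested did. The unadjusted p was under 0.05 for 2 members, ANXA2 and ANXA7, against 21.2% of all genes tested, so this count is close to the background. Of the 9 log2 fold changes, 5 were above 0 and 4 below, with a median of 0.15, beside -0.01 for all genes tested. When normal replicate 2 was left out, 8 were above 0 and 1 below, with a median of 0.37 beside 0.01 for all genes, and 4 members had an unadjusted p under 0.05, beside 16% of genes. DESeq2 also called 0 of the 9, where it called 10.1% of the genes given an adjusted p, and had 3 of the 9 at an unadjusted p under 0.05, where 22.2% of all genes were. With a log2 fold change over 1 in size required as well, 0 of the 9 passed either tool, beside 1.01% of genes with edgeR and 4.09% with DESeq2. None of 15 alternative settings called a member. The CPM (counts scaled to the TMM-adjusted library total) of the PVR samples lay above all normal samples for 3 members, ANXA1, ANXA2 and ANXA7, beside 13.4% of all genes tested, and below them for none of the members, beside 14.6%.

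**Figure D1:**
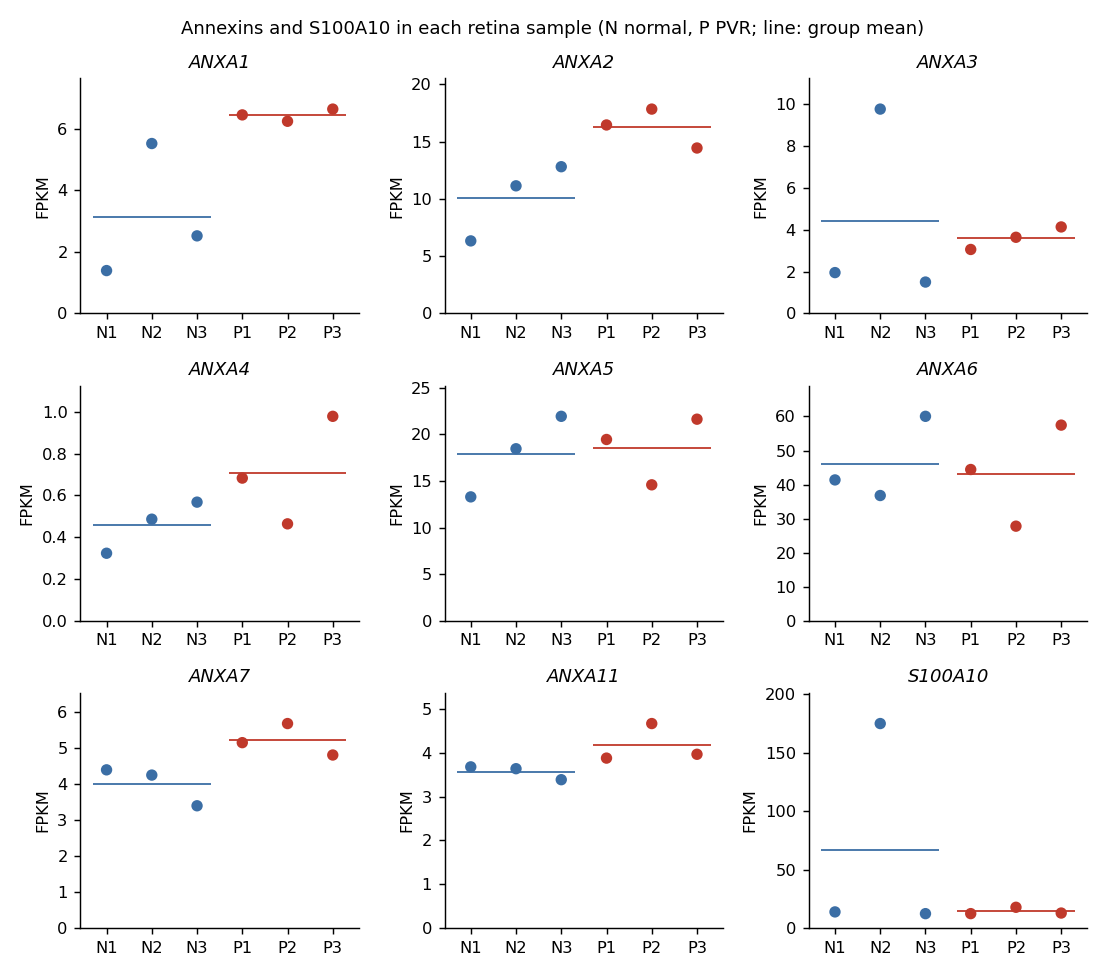
FPKM of each of the 9 genes (vertical axis, linear from 0) in normal replicates 1 to 3 (N1 to N3, blue) and PVR replicates 1 to 3 (P1 to P3, red), with a line at each group mean. The PVR points lie above every normal point for ANXA1, ANXA2, ANXA7 and, by a small gap, ANXA11, and S100A10 stands at 175 FPKM in normal replicate 2 alone.

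Levels between genes were compared as FPKM, which corrects for the gene length used by the authors. In the PVR samples ANXA6 was the most abundant of the 9, at 43.2 ± 14.9 FPKM (SD, n = 3), followed by ANXA5 at 18.6 ± 3.61 FPKM, ANXA2 at 16.3 ± 1.71 FPKM and S100A10 at 14.2 ± 3.01 FPKM. The ranges of ANXA5, ANXA2 and S100A10 overlapped between neighbours in this order. ANXA1 came next at 6.44 ± 0.198 FPKM, then ANXA7 at 5.21 ± 0.44 FPKM, ANXA11 at 4.17 ± 0.433 FPKM, ANXA3 at 3.61 ± 0.539 FPKM and ANXA4 at 0.708 ± 0.258 FPKM. Of these last, the ranges of ANXA11 and ANXA3 overlapped.

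In the normal samples the order was led by S100A10 at 67.0 ± 93.6 FPKM (SD, n = 3), a mean set by normal replicate 2. ANXA6 followed at 46.1 ± 12.3 FPKM, ANXA5 at 17.9 ± 4.35 FPKM and ANXA2 at 10.1 ± 3.36 FPKM. The remaining annexins lay between 4.41 FPKM for ANXA3 and 0.459 FPKM for ANXA4, and ANXA4 alone of these was separate from its neighbour in the order, ANXA1. In normal replicates 1 and 3 alone, ANXA6, ANXA5, S100A10 and ANXA2 led in this order, and ANXA1 stood at position 7 of 9, whereas in PVR it stood at position 5. The place of ANXA7 depends on its gene model of 12655 bases, far longer than the 292 to 2864 bases of the other members. That of S100A10 depends on the shortest gene model, of 292 bases. In CPM, which does not divide by length, ANXA7 had 52.1 ± 7.86 in normal and 64.3 ± 4.52 in PVR retina. In PVR it was second to ANXA6, with 121 ± 43.3. S100A10 had a mean of 4.05 CPM in PVR, below ANXA1 at 8.35, ANXA3 at 5.75 and ANXA11 at 4.77.

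As shares of the summed annexin FPKM, ANXA6 made up 56.9%, 40.8% and 56.6% in normal retina and 44.6%, 34.3% and 50.4% in PVR retina. ANXA2 made up 8.71%, 12.4% and 12.1% in normal retina and 16.5%, 22.1% and 12.7% in PVR retina. The share of ANXA2 was thus higher in every PVR sample than in every normal sample, with PVR replicate 3 close to the normal ones. The summed annexin FPKM itself overlapped between the groups, from 72.7 to 106 in normal and from 80.9 to 114 in PVR.

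ANXA1 is the annexin linked to the resolution of inflammation. It had an FPKM of 1.39, 5.52 and 2.52 in normal retina and 6.45, 6.24 and 6.64 in PVR retina. The PVR samples were close together and above all normal samples, and the nearest normal sample was replicate 2. The log2 fold change was 0.95 (standard error 0.46, 95% interval -0.12 to 2.02, adjusted p = 0.278 from edgeR with Benjamini-Hochberg adjustment). Without normal replicate 2 it was 1.67 (standard error 0.30, 95% interval 0.95 to 2.39, adjusted p = 0.102 from edgeR), a 3.29-fold ratio of mean FPKM in place of 2.05-fold. No member passed the edgeR test without that sample, where 0.396% of all genes did. Only DESeq2 without normal replicate 2, a setting chosen after the data were seen, gave ANXA1 an adjusted p under 0.05 (3.11e-05), where 6.43% of genes were called, and limma-voom on the same 5 samples gave 0.128.

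Markers of white blood cells moved in the same direction as ANXA1. The summed FPKM of 10 macrophage and microglia markers was between 15.5 and 37.0 in normal retina and between 43.6 and 61.3 in PVR retina, with all 10 fold changes above 0 and 0 past the edgeR test. DESeq2 called 4 of the 10 higher, P2RY12, ITGAM, CD68 and PTPRC, where it called 10.1% of genes in either direction. The summed FPKM of 6 neutrophil markers was between 1.02 and 3.41 in normal and between 15.3 and 34.8 in PVR, of which S100A8, S100A9 and S100A12 made up most. Of the others, MPO had 0 counts in all samples and CSF3R did not exceed 0.0606 FPKM. CXCR2 overlapped between the groups (log2 fold change 0.52, adjusted p = 0.619 from edgeR). The part of these cells in the ANXA1 level was not tested. In bulk tissue, more cells of a type and more RNA per cell cannot be told apart.

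ANXA2, the partner of S100A10, had an FPKM of 6.34, 11.1 and 12.8 in normal retina and 16.5, 17.8 and 14.4 in PVR retina. The groups did not overlap, but the gap between PVR replicate 3 and normal replicate 3 was smaller than the spread of the normal samples. The log2 fold change was 0.62 (standard error 0.25, 95% interval 0.03 to 1.20, unadjusted p = 0.0409, adjusted p = 0.217 from edgeR). Normal replicate 1 was the lowest, and without it the log2 fold change was 0.37. The change stayed above 0 in all 15 alternatives, with an adjusted p from 0.0965 with DESeq2 to 0.45 without PVR replicate 1.

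S100A10 had an FPKM of 13.7, 175 and 12.2 in normal retina and 12.2, 17.7 and 12.7 in PVR retina. All samples other than normal replicate 2 lay within the narrow band from 12.2 to 17.7 FPKM, and normal replicate 2 was 13.5 times the mean of the other normal samples. With all samples the log2 fold change was -2.34 (standard error 1.01, 95% interval -4.70 to 0.02, adjusted p = 0.241 from edgeR). Without normal replicate 2 it was 0.08 (standard error 0.28, 95% interval -0.59 to 0.75, adjusted p = 0.903 from edgeR). The lower group mean in PVR thus rested on that sample. DESeq2, which gives no p-value to a gene with an extreme count in 1 sample, gave none for S100A10.

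The ratio of S100A10 to ANXA2 within a sample does not depend on scaling between samples. Its size does depend on the gene lengths used, 292 bases for S100A10 and 1470 for ANXA2. The ratio was 2.16, 15.7 and 0.954 in normal retina and 0.743, 0.99 and 0.881 in PVR retina. The PVR samples were close to each other, and normal replicate 3 lay among them. The mean log2 ratio was 1.67 ± 2.08 in normal and -0.21 ± 0.21 in PVR (SD, n = 3; p = 0.2, two-sided exact permutation test, which cannot give less than 0.1 for 3 samples against 3). The difference of -1.88 between these means was -0.73 without normal replicate 2.

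Other genes were also high in normal replicate 2. ANXA3 had an FPKM of 1.95, 9.77 and 1.5 in normal retina and 3.06, 3.64 and 4.13 in PVR retina. It is an annexin of neutrophils and of microglia. Every PVR sample lay above normal replicates 1 and 3 and below normal replicate 2, which was 5.66 times the mean of the other normal samples. The log2 fold change of ANXA3 turned from -0.38 (standard error 0.68, adjusted p = 0.771) to 1.02 (standard error 0.28, adjusted p = 0.196) in the edgeR test without normal replicate 2, and with DESeq2 on the same 5 samples the adjusted p was 0.0265. ANXA1 was 2.82 times as high in normal replicate 2, whereas ANXA2, ANXA4, ANXA5, ANXA7 and ANXA11 were between 1.03 and 1.16 times and ANXA6 was 0.725 times the mean of the others. Over all genes tested, 4.31% were at least 2-fold higher in normal replicate 2 than that mean, as were 3 of the 9 members.

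S100A11, the S100 partner of annexin A1 and a direct neighbour of S100A10 in the gene order of RefSeq's rabbit assembly mOryCun1.1, was also higher in that sample, at 84.8 times the mean of the other normal samples. Its FPKM was 0.634, 74.0 and 1.11 in normal retina and 5.78, 4.94 and 4.33 in PVR retina, so that PVR lay between normal replicate 2 and the other normal samples. ANXA8 had the same order, with 9, 283 and 2 counts in normal retina and 87, 29 and 85 in PVR. The lens crystallin CRYAA had an FPKM of 9.80, 13245 and 6.08 in normal retina and 182, 153 and 185 in PVR. The part of lens tissue in these levels was not tested.

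**Figure D2:**
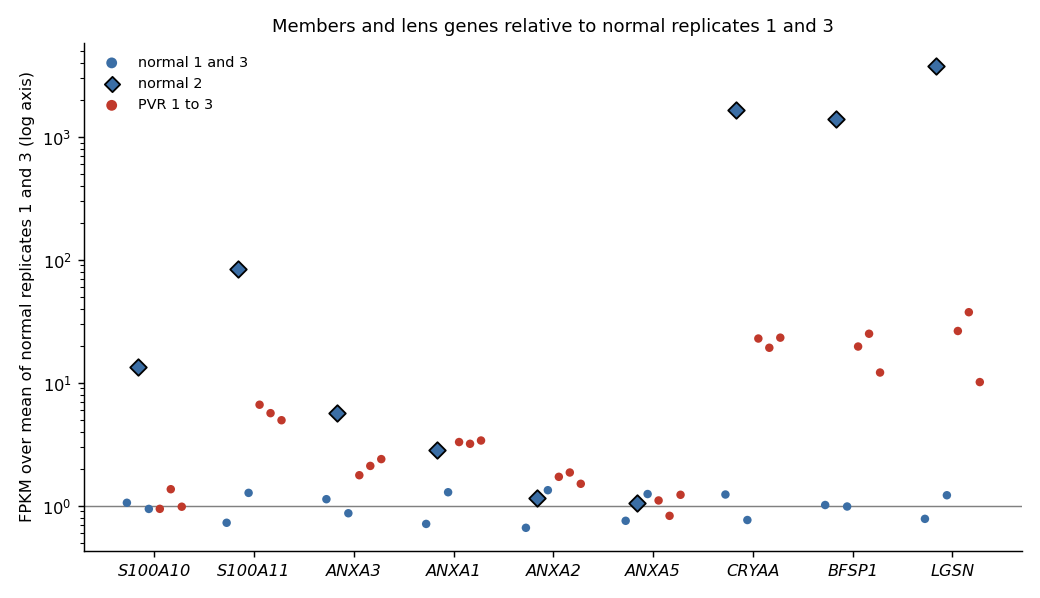
FPKM in each sample divided by the mean of normal replicates 1 and 3 (vertical axis, log scale; the line marks 1) for members, S100A11 and the lens genes CRYAA, BFSP1 and LGSN. Diamonds mark normal replicate 2, which stands far above the other samples for S100A10, S100A11 and the lens genes, above all PVR samples for ANXA3 and below them for ANXA1.

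ANXA5 binds phosphatidylserine, and its labelled protein is used to detect dying cells. ANXA6 carries a duplicated annexin core and binds membranes of the endocytic route. Both were abundant here. ANXA5 had an FPKM of 13.3, 18.5 and 21.9 in normal retina and 19.5, 14.6 and 21.6 in PVR retina, with full overlap. Its log2 fold change was -0.01 (standard error 0.22, 95% interval -0.52 to 0.49, adjusted p = 0.979 from edgeR), so a change of more than 1 on the log2 scale in either direction lies outside the interval. ANXA6 had an FPKM of 41.4, 36.8 and 60.1 in normal retina and 44.4, 27.8 and 57.5 in PVR retina. It overlapped as well, with a log2 fold change of -0.15 (standard error 0.28, 95% interval -0.80 to 0.50, adjusted p = 0.775 from edgeR).

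PVR replicate 2 was the lowest PVR sample for ANXA4, ANXA5, ANXA6 and, by a small gap, ANXA1, and the highest for ANXA2, ANXA7, ANXA11 and S100A10. Of the 6 fibroblast markers, COL1A1, COL1A2, COL3A1 and DCN also had their lowest PVR value in that sample, whereas LUM and PDGFRA had their highest PVR value there. Their summed FPKM was 67.0, 50.2 and 86.6 in PVR replicates 1 to 3 and between 30.7 and 43.02 in normal retina. Whether connective tissue has a part in the ANXA4, ANXA5 and ANXA6 levels was not tested. Among 3 samples a lowest or highest place is common, and its share over all genes was not counted. Without PVR replicate 2 the log2 fold changes were 0.80 for ANXA4, 0.14 for ANXA5 and 0.09 for ANXA6.

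ANXA4, an annexin of epithelial cells, was the least abundant member, with 26, 41 and 47 counts in normal and 45, 31 and 87 counts in PVR retina. Its lowest count has a 95% counting interval from 17.0 to 38.1 (exact Poisson), which alone spans a large part of the range between samples. The log2 fold change was 0.56 (standard error 0.41, 95% interval -0.40 to 1.53, adjusted p = 0.455 from edgeR), and the groups overlapped.

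ANXA7 and ANXA11 are the annexins with a long amino-terminal tail and take part in vesicle fusion and in the transport of RNA granules, respectively. ANXA7 had an FPKM of 4.39, 4.25 and 3.39 in normal retina and 5.15, 5.68 and 4.80 in PVR retina. The groups did not overlap, and the log2 fold change was small at 0.30 (standard error 0.12, 95% interval 0.02 to 0.59, unadjusted p = 0.0408, adjusted p = 0.217 from edgeR). ANXA11 had an FPKM of 3.68, 3.64 and 3.38 in normal retina and 3.88, 4.67 and 3.97 in PVR retina. These did not overlap in FPKM, but in CPM normal replicate 2, at 4.48, lay above PVR replicate 1, at 4.43. Its log2 fold change was 0.15 (standard error 0.19, 95% interval -0.30 to 0.60, adjusted p = 0.672 from edgeR), and its coefficient of variation, 4.44% in normal and 10.4% in PVR, was the lowest of the members in normal retina.

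**Figure D3:**
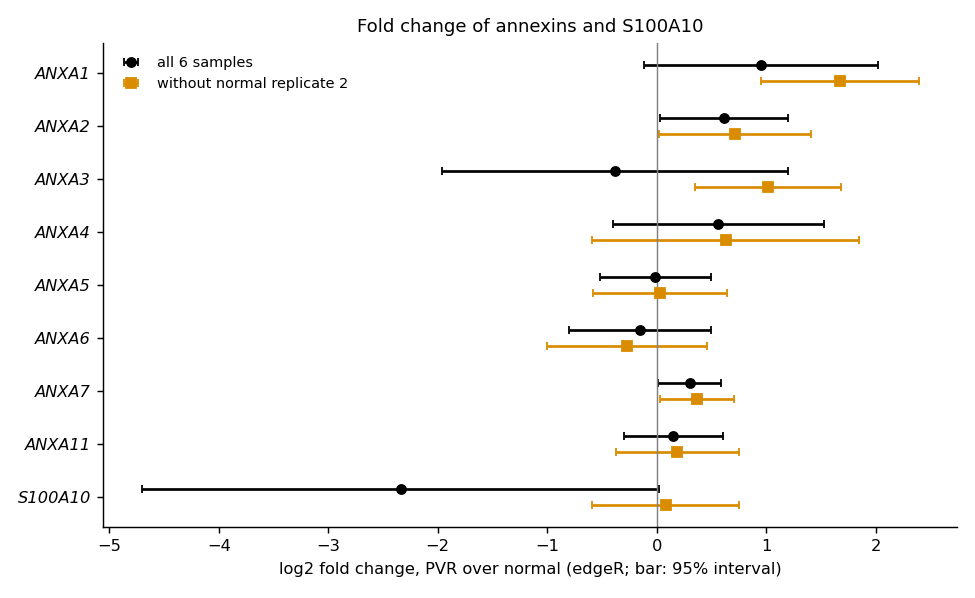
Log2 fold change of PVR over normal for each member from edgeR (horizontal axis; bars are 95% intervals), with all 6 samples (black circles) and without normal replicate 2 (orange squares). Leaving that sample out moves S100A10 from -2.34 to 0.08, ANXA3 from -0.38 to 1.02 and ANXA1 from 0.95 to 1.67, while the other members move by little.

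The genes whose levels over the 6 samples were most like those of ANXA2 were sought among the genes tested, by Pearson's correlation of log2 CPM. This is a description over 6 libraries that share their groups, and carries no p. GFAP, the intermediate filament of astrocytes and of reactive Müller glia, was the most alike of the genes with a symbol, at position 3 of 18696 (r = 0.99), followed by CYP2D24, USP50, TMTC1 and TNFSF13 at positions 4 to 8. GFAP had an FPKM of 20.02, 60.5 and 86.1 in normal retina and 157, 164 and 138 in PVR retina. Like ANXA2, it was lowest in normal replicate 1, highest in PVR replicate 2 and separate between the groups, and like ANXA2 it did not pass the test (log2 fold change 1.39, adjusted p = 0.143 from edgeR).

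S100A10 stood at position 9864 of 18696 in that order (r = -0.09), a value that includes its extreme level in normal replicate 2. ANXA1 stood at position 649 (r = 0.85). Over the 5 samples without normal replicate 2, S100A10 stood at position 8862 (r = 0.03), ANXA1 at position 731 (r = 0.91) and GFAP at position 19 (r = 0.99). The order of the normal samples in ANXA2 and GFAP was shared by the myelin gene MBP, at 10.03, 41.99 and 94.6 FPKM, and by the glial calcium-binding gene S100B, at 23.0, 35.8 and 50.6 FPKM. Few orders are possible for 3 samples, and the share of all genes with this order was not counted. Of the Müller glia markers, GLUL, AQP4 and KCNJ10 shared it, and RLBP1, SLC1A3, SOX9, DKK3 and ABCA8 did not. The order was also found in vessel cell markers. Of those of endothelium, CDH5, VWF, CLDN5, TEK and FLT1 shared it, and PECAM1, TIE1 and KDR did not. Of those of pericytes and smooth muscle, PDGFRB, RGS5 and ABCC9 shared it, and CSPG4, ACTA2, MYH11 and KCNJ8 did not. In PVR, MBP was lower than in any normal sample, at 3.08 to 4.27 FPKM, while ANXA2 was higher than in any.

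**Figure D4:**
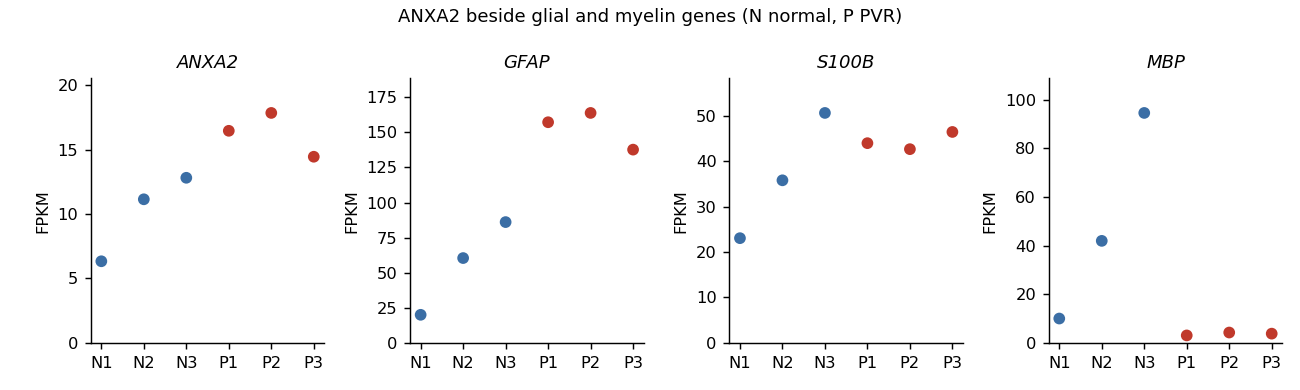
FPKM (vertical axes, linear from 0) of ANXA2, GFAP, S100B and MBP in normal (N1 to N3, blue) and PVR (P1 to P3, red) samples. All 4 genes rank the normal samples in the same order, which not all glial markers share and which some vessel cell markers share. In PVR ANXA2 and GFAP lie above all normal samples while MBP lies below them.

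Among the annexins outside the 9, ANXA10, an annexin of stomach and other epithelia, rose, where 1.09% of all genes tested rose. It had 0 counts in the 3 normal samples and 20, 26 and 16 counts in PVR, which is at least 7.999-fold higher against a limit of 3 counts per normal library (adjusted p = 0.0487 from edgeR). This call was lost whichever sample was left out (adjusted p from 0.0518 to 0.245 from edgeR), and its level in PVR was no higher than 0.294 FPKM. ANXA8 was tested and not called, and ANXA9 and ANXA13 had too few counts to be tested.

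The receptors of annexin A1 were nearly absent from the normal samples. FPR2 had 2, 1 and 0 counts in normal and 50, 48 and 60 in PVR (adjusted p = 0.0164 from edgeR), a ratio per counted read of 58.8 (95% counting interval 19.8 to 288). FPR1 had 0, 1 and 0 counts in normal and 14, 21 and 29 in PVR (adjusted p = 0.0382 from edgeR), a ratio of 71.5 (95% counting interval 12.4 to 2868). Without normal replicate 2 the adjusted p was 0.0772 for FPR2 and 0.111 for FPR1, and without PVR replicate 1 it was 0.123 and 0.189. Over all genes edgeR called 318 with all samples, 76 without normal replicate 2 and 22 without PVR replicate 1. Of the 8 genes tested in the list of formyl peptide receptors, phospholipase A2, lipoxygenase and cyclooxygenase genes, these 2 rose and the other 6 did not pass, and the median log2 fold change was 0.57.

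Of the 12 other S100 genes tested, 4 rose, beside 1.09% of all genes tested, and 0 fell, with a median log2 fold change of 0.97. With normal replicate 2 left out, the median was 1.67 and 1 gene, S100A6, passed, and S100A11 turned from -2.44 to 2.47. S100A6, a partner of annexins A2 and A11 that is found in glia and dividing cells, had an FPKM of 1.31, 3.67 and 1.76 in normal and 12.7, 12.6 and 14.96 in PVR retina. The groups were far apart, and the log2 fold change was 2.49 (standard error 0.40, adjusted p = 0.0369 from edgeR). S100A6 kept its call without normal replicate 2 (log2 fold change 3.07, adjusted p = 0.0143). It lost the call without PVR replicate 1 (adjusted p = 0.189), where 22 of all genes were called. The others were S100A8, S100A9 and S100A12, secreted by neutrophils and monocytes, with log2 fold changes of 4.27, 2.96 and 3.21 and adjusted p from 0.0342 to 0.0486 from edgeR. Without normal replicate 2 their adjusted p lay between 0.0901 and 0.155, and without PVR replicate 1 between 0.189 and 0.238.

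Of the 21 other membrane repair genes tested, 2 rose with edgeR, beside 1.09% of all genes tested, and 0 fell. The median log2 fold change was 0.05. Both were ferlins, calcium-binding proteins that bring vesicles to a membrane wound. MYOF had an FPKM of 0.299, 0.378 and 0.603 in normal and 2.78, 3.32 and 2.02 in PVR retina (log2 fold change 2.60, standard error 0.30, adjusted p = 0.0143 from edgeR). DYSF, which binds annexins A1 and A2, had an FPKM of 0.957, 0.889 and 0.978 in normal and 1.85, 2.16 and 1.64 in PVR retina (log2 fold change 0.93, standard error 0.15, adjusted p = 0.0389 from edgeR). Without normal replicate 2 the adjusted p was 0.0634 for MYOF and 0.129 for DYSF. Without PVR replicate 1, where 22 of all genes were called, these were 0.106 and 0.223. AHNAK is the scaffold that binds the complex of annexin A2 and S100A10. It had an FPKM of 7.33, 17.7 and 13.4 in normal and 17.8, 16.3 and 19.8 in PVR. The groups overlapped only through normal replicate 2 (log2 fold change 0.41, adjusted p = 0.435 from edgeR). Without that sample the log2 fold change of AHNAK was 0.75 (adjusted p = 0.235 from edgeR). DESeq2 called the same 2 ferlins and also a fall of 1 gene, CHMP4B (adjusted p = 0.0128), where it called 10.1% of genes. CHMP4B had an FPKM of 68.3, 67.0 and 66.8 in normal and 54.3, 44.0 and 57.3 in PVR (log2 fold change -0.45, adjusted p = 0.0926 from edgeR).

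**Figure D5:**
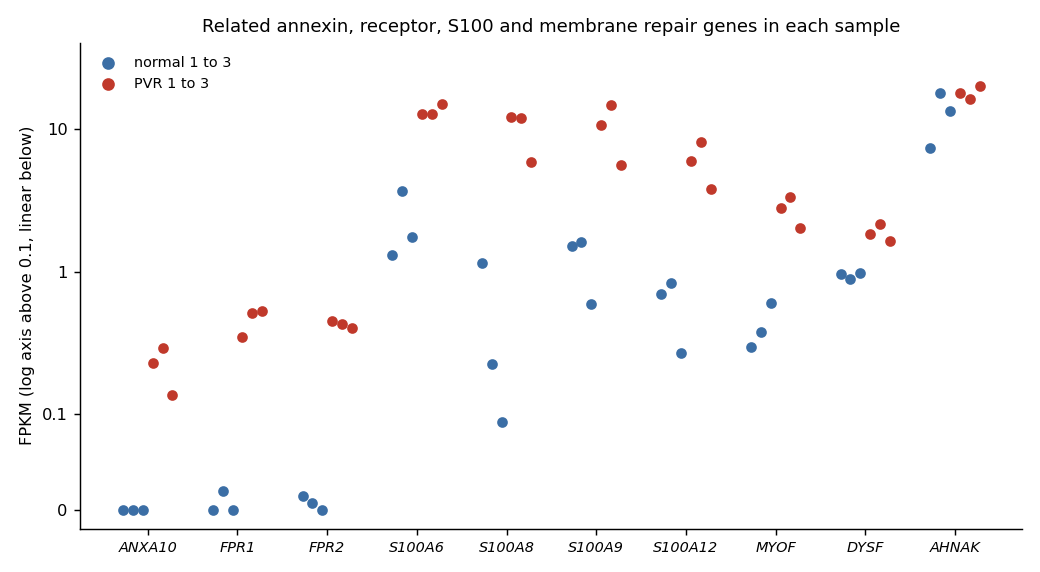
FPKM (vertical axis, log scale above 0.1 and linear below) of ANXA10, the receptors FPR1 and FPR2, S100 genes and membrane repair genes in the normal (blue) and PVR (red) samples. The groups are separate for all genes shown other than AHNAK, and ANXA10 is at 0 in every normal sample.

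Of the 8 plasminogen genes tested, 0 passed with edgeR and 0 with DESeq2, 1 had an unadjusted p under 0.05 with edgeR, and the median log2 fold change was -0.01. PLAT, the tissue activator that the complex of annexin A2 and S100A10 binds, had an FPKM of 4.59, 4.35 and 5.06 in normal and 4.26, 3.66 and 4.97 in PVR (log2 fold change -0.19, adjusted p = 0.542 from edgeR). PLG, the precursor of plasmin, was close to 0 in all samples, with no more than 0.068 FPKM, and was not tested.

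Of the 10 genes of reactive glia tested, 4 rose with edgeR, beside 1.09% of all genes tested, and 0 fell, with a median log2 fold change of 1.02. These were CP, STAT3, CLU and CD44, with log2 fold changes of 3.23, 1.21, 1.07 and 0.41. CP, STAT3 and CLU kept an adjusted p under 0.05 without normal replicate 2, whereas CD44 had 0.145. Without PVR replicate 1, where 22 of all genes were called, only CP of these kept it, with 0.0658 for STAT3, 0.0949 for CLU and 0.257 for CD44. With edgeR's test on all samples their adjusted p lay between 3.45e-05 and 0.0478. VIM, an abundant filament gene of Müller glia, overlapped between the groups, from 434 to 662 FPKM in normal and from 469 to 514 FPKM in PVR, and was highest in normal replicate 2.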

How the data were processed

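Polyadenylated RNA came from rabbit retina, in 3 normal and 3 PVR libraries. The submitters' processing notes name fastp, HISAT2 and HTSeq, and the study's methods name the genome build OryCun2.0. The annotation release, strand setting and tool versions were not given in the sources used here. The authors deposited raw read counts per gene with FPKM values beside them. The deposited FPKM equalled the count divided by gene length and by the total count (largest relative difference 4.24e-09).

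Counts were tested with edgeR 4.0.16 (R 4.3.3): TMM scaling, the default filter on low counts, the quasi-likelihood test and Benjamini-Hochberg adjustment with a threshold of 0.05. Genes past the thresholds also had an absolute log2 fold change over 1. FPKM served to compare levels and, on the log2 scale with pseudocounts of 1 or 0.1, as an alternative with limma 3.58.1. DESeq2 1.42.0, limma-voom, other scaling factors and filters, a replicate block and the omission of each sample were also tried. Scripts were tested on simulated data in which 200 of 18697 genes differed between the groups. Of these 200, edgeR found 58%, and 12 of the 128 genes it named did not truly differ. DESeq2 found 68%, but 67 of the 203 genes it named did not truly differ. With limma-voom the share found was 56%, and 9 of 121 named genes did not truly differ. A gene that edgeR did not call may therefore still differ. The S100A10 to ANXA2 ratio was tested by exact permutation with SciPy 1.17.1. Intervals of counts are exact Poisson or conditional intervals at 95% and cover counting error only.

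The members, the related gene lists and the marker lists were chosen with earlier results of these data known. The members and the called genes of each related list were named, together with the markers and partners described beside them and the 5 genes with a symbol most alike to ANXA2 (Pearson's correlation of log2 CPM, repeated without normal replicate 2 after the data were seen). The lens genes shown with normal replicate 2 were named with their values seen. Some genes of the lists are not reported here by name. Matching by symbol or RefSeq gene identifier (mOryCun1.1) left ANXA8L1, S100A2, S100A4, S100A7 and FPR3 not analysed here.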

Additional observations from a re-analysis of the deposited data

How the results depend on the processing

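The number of all genes past the adjusted p and fold thresholds was 188 and became 731 with DESeq2, 87 with limma on log2(FPKM + 1), 82 with the replicate block and between 22 and 436 with 1 sample left out. No member had an adjusted p under 0.05 in any of the 15 settings chosen at the outset. Of the settings added after seeing the data, DESeq2 without normal replicate 2 gave 631 genes and 2 members, ANXA1 (log2 fold change 1.67) and ANXA3 (1.02), and limma-voom without normal replicate 2 gave 20 genes and 0 members. Of the related listed genes 13 were called, against 14 with DESeq2 and 18 with DESeq2 without normal replicate 2. The count was 8 with at least 10 counts in every sample, 5 with the replicate block and 2 with limma-voom without normal replicate 2. It was between 1 and 11 with 1 sample left out. Over the 6 fits that leave out 1 sample, CP passed in 6, STAT3 and CLU in 5, and FPR2 and MYOF in 4. S100A8 passed in 3, S100A6, S100A9, S100A12 and DYSF in 2, and ANXA10, FPR1 and CD44 in 0. The fold change of ANXA3 turned above 0 with limma-voom (0.18), limma on log2(FPKM + 1) (0.094) and on log2(FPKM + 0.1) (0.21), with the replicate block (0.17) and with limma-voom without normal replicate 2 (1.04), and ran from -0.79 to 1.02 with 1 sample left out. That of ANXA5 was 0.014 with upper-quartile factors, 0.0020 with limma-voom, 0.059 and 0.063 with pseudocounts of 1 and 0.1 on FPKM, 0.029 and 0.060 with DESeq2 and limma-voom without normal replicate 2, and from -0.18 to 0.15 with 1 sample left out. ANXA6 ran from -0.43 to 0.092 and S100A10 from -2.83 to 0.081 with 1 sample left out, and S100A10 was 0.078 and 0.062 with the added settings. The causes were not tested. ANXA1, ANXA2, ANXA4, ANXA7 and ANXA11 stayed above 0 in all 15 of those settings. The labels share replicate numbers between groups, but deviations of same-numbered samples correlated at -0.01, 0.07 and 0.04, so the numbers were not taken as pairs. The replicate block changed no member's call, and the S100A10 to ANXA2 log2 ratio difference under it, -1.88, equals the unblocked one by arithmetic. Counting error was widest for ANXA4, whose lowest library held 26 counts.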
